A study of Rattus norvegicus with 4 samples.

Results

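Genes of the TGF-beta and BMP signalling family were followed in ear skin of Sprague Dawley rats after delivery of Fgf7, the gene for a fibroblast growth factor that acts on epithelial cells. The family was taken as the protein-coding rows of the deposited gene table whose names mark a bone morphogenetic protein (Bmp), transforming growth factor beta (Tgfb), growth and differentiation factor (Gdf) or activin subunit (Inhb), a receptor of these ligands (Bmpr, Tgfbr, Acvr), or a Smad. These names gave 48 of the 54532 genes in the table, of which 36 had a count in at least 1 library and 24 had enough counts to be tested. The other 12 members with a count did not pass the low-count filter, and 12 were listed at 0 in all 4 libraries.

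Skin was taken where virus had been injected, on day 3. In each of 2 rats, 1 ear received AAV-Fgf7, an adeno-associated virus (a small DNA virus used to carry genes) with the genotype label Fgf7 overexpression, and the other ear received AAV-control, with the genotype label wt. There were thus 2 AAV-Fgf7 libraries and 2 control libraries, 1 of each kind per rat, and every ear was exposed to a virus. The AAV-Fgf7 libraries were matched to rats by the numbers in column names and titles. Every comparison within a rat rests on that match. The age of the rats and the promoter or cell type that drives Fgf7 are not given in the labels, and the tissue was not sorted, so that fewer cells of a type and less RNA per cell cannot be told apart in any value given here.

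Ligands of this family are secreted as dimers. They bind a type II receptor, which phosphorylates a type I receptor, which in turn phosphorylates receptor Smads; these join Smad4 and enter the nucleus, while Smad6 and Smad7 act as inhibitors. In skin, TGF-beta is known to restrain the division of keratinocytes and to raise matrix synthesis by dermal fibroblasts, and BMP signalling takes part in epidermal differentiation and in the hair cycle.

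Library totals were 1433247 and 1417294 counts for AAV-Fgf7 in rats 1 and 2, and 1299136 and 1601321 counts for control. Fgf7 itself, read first as a check of the labels, had 454 and 1429 counts with AAV-Fgf7 in rats 1 and 2, against 94 and 110 counts with control virus. This gave a log2 fold change of 3.18 (SE 0.54); edgeR's quasi-likelihood test put the adjusted p at 0.9996 and DESeq2 put it at 3.47e-07. Marker genes of several tissues in the ear differed between libraries in ways that did not follow the virus. Levels between libraries are given in CPM, counts scaled to library size with trimmed-mean factors. Hair follicle markers (11 of 14 with a count) added up to 3718 and 231 CPM in the AAV-Fgf7 ears of rats 1 and 2 and 78.2 and 1217 CPM in their control ears. Skeletal muscle markers, with a count for all 12, summed to 30139 and 15012 CPM in the AAV-Fgf7 ears and to 14017 and 57843 CPM in the control ears, and cartilage markers, with 9 of 10, to 1096 and 648 CPM against 590.0 and 2145 CPM. Within rat 1 these 3 sums were higher in the AAV-Fgf7 ear, and within rat 2 they were lower. Basal keratinocyte markers, with a count for all 8, summed to 1914 and 3677 CPM in the AAV-Fgf7 ears and to 1244 and 1151 CPM in the control ears. Of 8 fibroblast markers 3, among them Lum, were listed at 0 in every library, as were Dcn, 5 of 6 T and NK cell markers and all 5 neutrophil markers. The rat reads are listed under mouse gene models, so a gene at 0 is not shown to be absent from the tissue.

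No member of the family was called between AAV-Fgf7 and control ears. Since edgeR did not call Fgf7 itself in the main fit, the lack of a call does not show that a member was unchanged. Without the low-count filter, edgeR called Fgf7 (adjusted p of 0.00512) and 0 members. The quasi-likelihood test of edgeR called 0 of the 24 tested members and 0 of all 6370 tested genes (0.0%) at an adjusted p under 0.05, and DESeq2 called 0 of the members and 4 of all genes (0.0628%). At an unadjusted p under 0.05, edgeR listed 1 of the 24 members (Bmp7) and 148 of all genes (2.32%), and DESeq2 listed 1 member and 84 genes (1.32%). Bmp7 was also the 1 member listed as higher at that level by edgeR, as were 109 of all genes (1.71%), and the 1 member with a log2 fold change beyond 1 in size, against 252 of all genes (3.96%). The log2 fold changes of AAV-Fgf7 over control ran from -0.89 for Smad3 to 1.61 for Bmp7 among the 24 tested members. Their median was 0.01, with 12 positive and 12 negative, beside a median of -0.02 over all tested genes. Both AAV-Fgf7 libraries lay above both control libraries for 2 members, Bmp7 and Inhbb, or 8.33%, against 14.8% of all tested genes. They lay below both for 3 members, Smad3, Smad4 and Tgfbr1, or 12.5%, against 13.3% of all tested genes. Neither share was above that of the whole table.

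**Figure D1:**
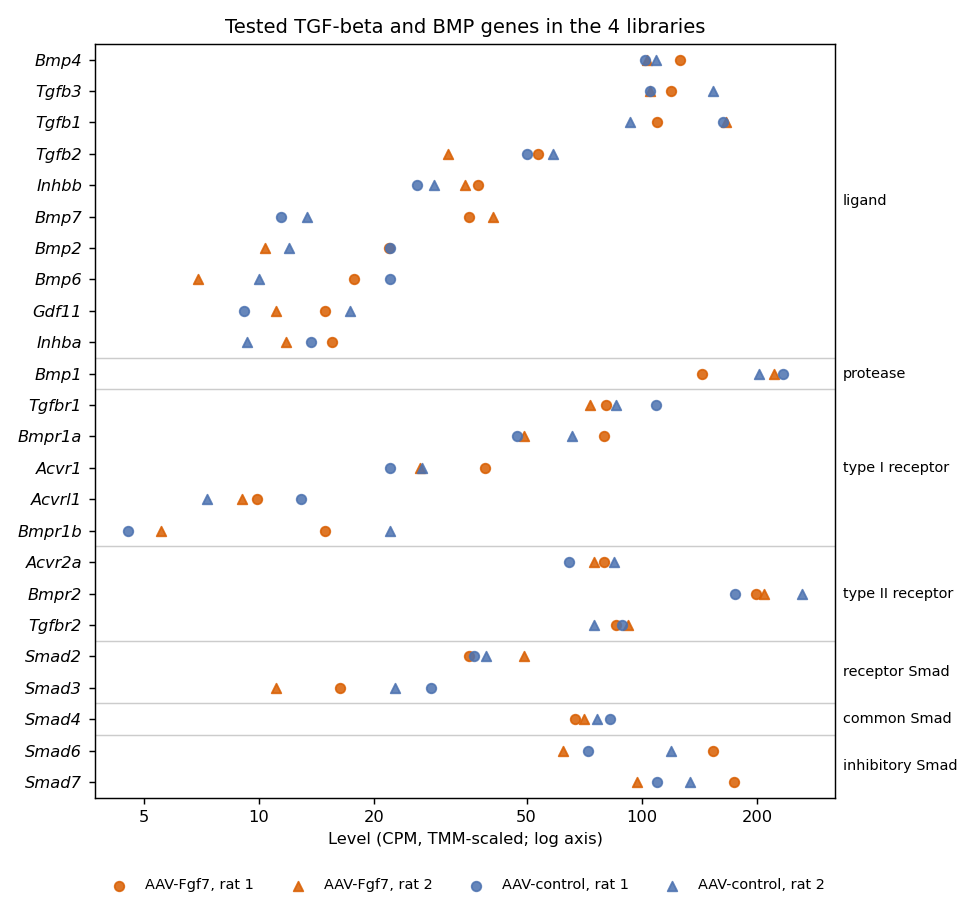
Levels of the 24 tested members in each library, in CPM on a log axis, grouped by role, with AAV-Fgf7 libraries in orange and control libraries in blue and the rat shown by the marker shape. The gap between the 2 orange and the 2 blue points is widest for Bmp7, and several genes such as Smad6 and Bmpr1b spread as widely within a colour as between colours.

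Promoter windows were found by symbol for 38 of the 48 members in a RefSeq table of the rat assembly GRCr8. Each runs from 250 bases before to 50 bases after the annotated start of the gene. Whether transcription begins at that start was not checked. In the Inhbb window the start falls on the letters atg, a start codon, so that window is not shown to be a promoter. The windows of Inhbb, Tgfbr1 and Smad3 are shown because they belong to members whose groups did not overlap. Of the other members with separated groups, Bmp7 had no entry in the table, and the promoter of Smad4, which is not shown, had a GC content of 31.7% and 0 matches to any motif searched. The 3 shown lie at chr13:33089324-33089623 (minus strand), chr5:66449148-66449447 (plus strand) and chr8:73132275-73132574 (minus strand), and capitals mark GGCGCC, a GC-rich palindrome bound by BMP-activated Smads.
Inhbb: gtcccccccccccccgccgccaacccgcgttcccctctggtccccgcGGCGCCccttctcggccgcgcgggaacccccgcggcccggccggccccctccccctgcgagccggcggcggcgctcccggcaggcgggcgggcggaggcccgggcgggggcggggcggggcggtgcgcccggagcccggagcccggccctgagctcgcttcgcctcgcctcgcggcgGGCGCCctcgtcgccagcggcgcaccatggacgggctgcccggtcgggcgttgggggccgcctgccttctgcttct
Tgfbr1: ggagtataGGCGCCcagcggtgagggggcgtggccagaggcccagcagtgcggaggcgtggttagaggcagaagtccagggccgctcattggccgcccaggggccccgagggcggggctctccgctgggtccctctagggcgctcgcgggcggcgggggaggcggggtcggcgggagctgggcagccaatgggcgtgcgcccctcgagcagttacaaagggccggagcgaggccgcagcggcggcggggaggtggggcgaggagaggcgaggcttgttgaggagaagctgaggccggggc
Smad3: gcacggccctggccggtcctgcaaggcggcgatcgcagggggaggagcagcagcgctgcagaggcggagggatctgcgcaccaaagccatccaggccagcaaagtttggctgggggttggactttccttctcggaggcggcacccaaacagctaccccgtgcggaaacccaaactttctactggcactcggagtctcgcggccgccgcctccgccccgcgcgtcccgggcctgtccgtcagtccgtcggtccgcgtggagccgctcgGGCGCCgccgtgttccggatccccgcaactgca
On a search of both strands for GTCTAGAC (a palindromic Smad element), AGCCAGACA (the CAGA box), CCGGAAGT (an ETS site) and GGCGCC, the last was the one found in these windows, with 2 matches for Inhbb and 1 each for Tgfbr1 and Smad3. It occurred in 10 of the 38 member promoters (26.3%), in 11.0% of all 33469 promoters of that length, and in 46.6% of the 2920 promoters at least as GC-rich as that of Smad3. The GC content was 84.3%, 74.7% and 69.7% in the windows of Inhbb, Tgfbr1 and Smad3, against a median of 51.7% over all promoter windows. The other 3 motifs were found in 0 member promoters, and in 0.197%, 0.368% and 3.81% of all promoters in the order given. These matches describe the letters in the window and are not evidence of binding.

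Bmp7 had the largest log2 fold change of the 24 tested members. It encodes a BMP ligand known for its part in kidney and skeletal development, and it is listed as ENSMUSG00000008999 on mouse chromosome 2 at 172868012 to 172940321, minus strand, with 4019 bases counted; which mouse build these positions refer to was not given in the sources used here. Bmp7 had 50 and 59 counts with AAV-Fgf7 in rats 1 and 2, against 15 and 20 counts with control virus. Both AAV-Fgf7 libraries thus stood well above both control libraries. In CPM this was 38.1 ± 3.92 in AAV-Fgf7 ears and 12.4 ± 1.36 in control ears (SD, n = 2 each), a log2 fold change of 1.61 (SE 0.35). The ratio of the AAV-Fgf7 to the control ear was 3.10 in rat 1 and 3.07 in rat 2. The edgeR test gave Bmp7 a p of 0.00349 before adjustment, at rank 9 of 6370 genes, and 0.9996 after it, so the gene did not pass. Its log2 fold change stayed between 1.51 and 1.74 when each library was left out in turn. The basal keratinocyte sum was also higher in both AAV-Fgf7 ears, at 1914 and 3677 CPM in rats 1 and 2 against 1244 and 1151 CPM in control ears. Bmp7 stood at 35.3 and 40.8 CPM in the AAV-Fgf7 ears and at 11.4 and 13.3 CPM in the control ears. The part of keratinocyte content in the Bmp7 difference was not tested.

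The remaining BMP and GDF ligands showed no such gap. Bmp4, a ligand made by dermal and hair papilla mesenchyme, stood at 126 and 103 CPM in the AAV-Fgf7 ears of rats 1 and 2 and at 102 and 109 CPM in their control ears, a log2 fold change of 0.12 (SE 0.22). Its 4 libraries lay close together and the groups overlapped. Bmp2, an inducer of bone and of follicle differentiation, had 31 and 15 counts in AAV-Fgf7 ears and 29 and 18 counts in control ears. Bmp6, a close relative of Bmp7, had 25 and 10 counts in AAV-Fgf7 ears and 29 and 15 counts in control ears. For both genes the 2 libraries of rat 1 were above the 2 libraries of rat 2. Their log2 fold changes were -0.07 (SE 0.54) for Bmp2 and -0.37 (SE 0.63) for Bmp6. Gdf11, a relative of myostatin, stood at 14.8 and 11.1 CPM in AAV-Fgf7 ears and at 9.11 and 17.3 CPM in control ears, so that its groups overlapped (log2 fold change -0.04, SE 0.50). Bmp5, Gdf5, Gdf6 and Gdf10 had between 2 and 5 counts over all libraries. Bmp3, Bmp8a, Bmp8b, Bmp10, Bmp15, Gdf1, Gdf2, Gdf3, Gdf7, Gdf9 and Gdf15 were listed at 0; where reads of a gene can be counted at all, a count of 0 allows up to 2.28 CPM in the shallowest library for counting error alone.

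Among the TGF-beta ligands, no gene separated the groups. Tgfb1, the isoform released by platelets and immune cells at wounds, stood at 109 and 166 CPM in the AAV-Fgf7 ears of rats 1 and 2 and at 162 and 93.2 CPM in their control ears. It was lower in the AAV-Fgf7 ear of rat 1 and higher in that of rat 2, at ratios of 0.674 and 1.78, and its log2 fold change was 0.11 (SE 0.34). The summed macrophage markers were 205 and 278 CPM in AAV-Fgf7 ears and 382 and 148 CPM in control ears. Of the 6 markers, only 2 (Csf1r and Aif1) passed the low-count filter. The sum was likewise lower in the AAV-Fgf7 ear of rat 1 and higher in that of rat 2. The part of macrophages in the Tgfb1 values was not tested. Tgfb2 stood at 53.7 and 31.2 CPM in AAV-Fgf7 ears and at 50.1 and 58.6 CPM in control ears, a log2 fold change of -0.36 (SE 0.35). Tgfb3, an isoform known for its part in palate closure, stood at 119 and 105 CPM in AAV-Fgf7 ears and at 105 and 153 CPM in control ears, a log2 fold change of -0.20 (SE 0.26). In both isoforms the AAV-Fgf7 ear was slightly higher in rat 1 and lower in rat 2.

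Of the activin subunits, Inhbb, which encodes the subunit of activin B, stood at 37.4 and 34.6 CPM in AAV-Fgf7 ears of rats 1 and 2 and at 25.8 and 28.6 CPM in their control ears. The groups did not overlap, but the log2 fold change of 0.40 (SE 0.31) was little above its error, with an adjusted p by edgeR of 0.9996 (unadjusted p of 0.238). Inhba, the subunit of activin A and a gene known to be induced in wounds, had 22 and 17 counts in AAV-Fgf7 ears and 18 and 14 in control ears, a log2 fold change of 0.25 (SE 0.46). Inhbc had 1 count in all and Inhbe was listed at 0.

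Levels were set between genes on the authors' FPKM, which divides by the length of the gene model. By the mean over 4 libraries, Bmp4 led the ligands at 48.0 ± 4.68 FPKM (SD, n = 4 libraries of both groups), followed by Tgfb3 at 34.99 ± 6.56 and Tgfb1 at 25.9 ± 7.24. Bmp4 exceeded Tgfb3 in each library, whereas Tgfb1 and Tgfb3 did not differ beyond their spread: Tgfb1 was the higher in the AAV-Fgf7 ear of rat 2 and the control ear of rat 1. Tgfb2 at 8.20 ± 2.03, Inhbb at 7.29 ± 1.21 and Bmp7 at 6.15 ± 3.66 followed and did not differ beyond their spread, and Bmp2, Bmp6, Gdf11 and Inhba lay between 1.93 and 4.57 FPKM. The place of Bmp7 in this order differed between the groups: it stood at 8.60 and 9.97 FPKM in AAV-Fgf7 ears, where it exceeded Inhbb in rat 2, and at 2.79 and 3.25 FPKM in control ears, below Inhbb in both. Summed over 20 genes, BMP and GDF ligands came to 77.9 and 62.9 FPKM in AAV-Fgf7 ears and 62.1 and 61.9 FPKM in control ears, of which Bmp4 made up the largest part. The 3 TGF-beta ligands came to 64.8 and 68.1 FPKM against 70.8 and 72.5 FPKM. Bmp1 carries the name of the family but encodes a metalloproteinase that trims procollagens and antagonists, not a ligand; it stood at 143 and 222 CPM in AAV-Fgf7 ears and at 233 and 202 CPM in control ears, with overlapping groups and a log2 fold change of -0.25 (SE 0.26).

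All 7 type I receptor genes had counts, and 5 were tested. Tgfbr1, the type I receptor of TGF-beta, stood at 80.5 and 73.4 CPM in the AAV-Fgf7 ears of rats 1 and 2 and at 109 and 85.9 CPM in their control ears. The groups did not overlap, but the log2 fold change of -0.34 (SE 0.25) had an adjusted p by edgeR of 0.9996 (unadjusted p of 0.220). Bmpr1a, the BMP receptor needed for hair shaft differentiation, stood at 79.8 and 49.2 CPM in AAV-Fgf7 ears and at 47.1 and 65.9 CPM in control ears, and Acvr1, a BMP receptor mutated in a human bone-forming disease, had 55 and 38 counts against 29 and 40. Their groups overlapped, with log2 fold changes of 0.19 (SE 0.35) and 0.42 (SE 0.36). Acvrl1, a receptor of endothelial cells, had 14 and 13 counts in AAV-Fgf7 ears and 17 and 11 in control ears. Its groups overlapped, and its log2 fold change was -0.09 (SE 0.52). The endothelial marker sum was 118 and 118 CPM against 117 and 146 CPM, with 3 of 7 markers past the low-count filter. Acvr1b and Acvr1c, type I receptors for activins and nodal, had 11 and 3 counts in all.

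Bmpr1b varied most between libraries among the tested members. This type I BMP receptor, known for its part in cartilage formation, had 21 and 8 counts with AAV-Fgf7 in rats 1 and 2, against 6 and 33 counts with control virus. The AAV-Fgf7 ear of rat 1 stood at 3.26 times the control ear, and that of rat 2 at 0.252 times. The log2 fold change of -0.40 (SE 0.83) became 1.14 without the control library of rat 2. Its 4 libraries stood in the same order as in the skeletal muscle and cartilage sums given above, and the part of those tissues in it was not tested.

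None of the 3 tested type II receptors had separated groups. Bmpr2, the BMP type II receptor, stood at 198 and 209 CPM in AAV-Fgf7 ears and at 175 and 262 CPM in control ears. Tgfbr2, its counterpart for TGF-beta, stood at 85.5 and 92.1 CPM in AAV-Fgf7 ears and at 88.8 and 75.2 CPM in control ears. Acvr2a, which binds activins and several BMPs, stood at 79.8 and 74.8 CPM in AAV-Fgf7 ears and at 64.5 and 84.5 CPM in control ears. The log2 fold changes of these genes lay between -0.10 and 0.11. Per gene length, Acvr2a, Tgfbr1, Bmpr2 and Tgfbr2 had means of 10.2 to 13.1 FPKM, with SDs of 0.881 to 2.32 FPKM over 4 libraries, so their order was not resolved. Acvr2b had 10 counts in all, 1 and 1 in AAV-Fgf7 ears and 3 and 5 in control ears. Its groups did not overlap, with log2 ratios of -1.69 in rat 1 and -2.27 in rat 2, but it did not pass the filter. Tgfbr3, the co-receptor betaglycan that presents TGF-beta to its receptors, had 33 and 2 counts in AAV-Fgf7 ears and 4 and 7 in control ears and did not pass the filter. Fitted with no filter, it had a log2 fold change of 1.64 (SE 0.89) and an edgeR adjusted p of 0.975. Most of its counts thus came from the AAV-Fgf7 library of rat 1, which also had the highest hair follicle sum; the part of follicles in it was not tested.

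**Figure D2:**
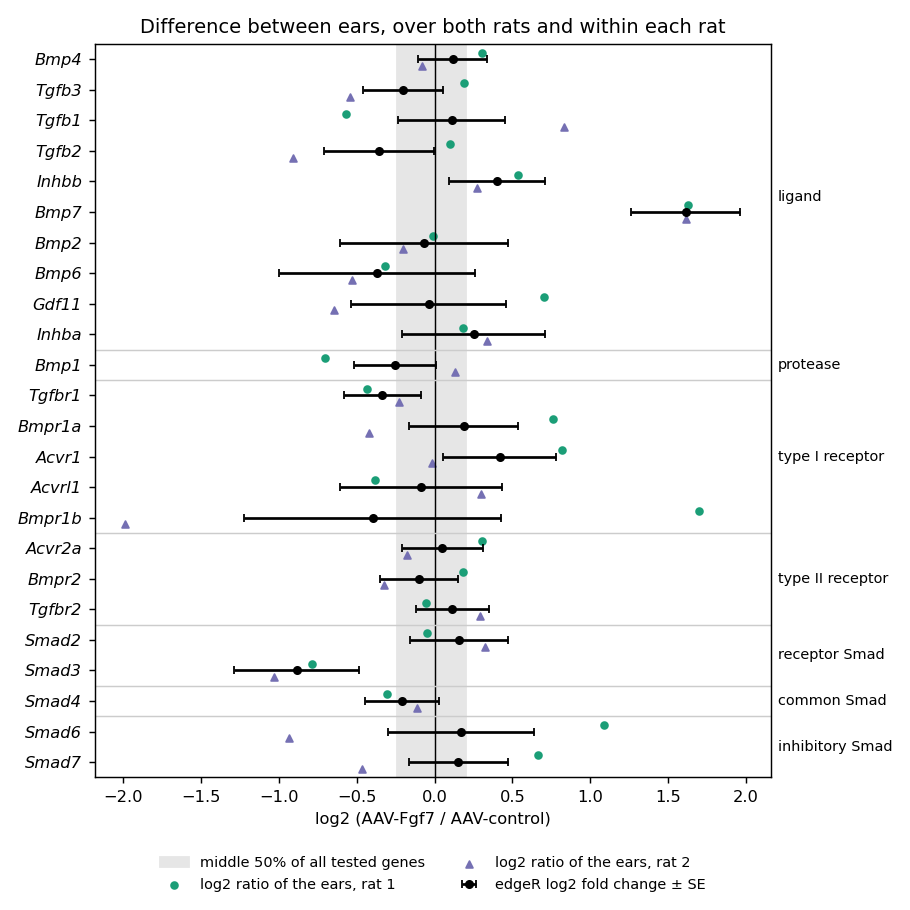
Difference between AAV-Fgf7 and control ears for each tested member on the log2 scale, with the edgeR estimate and its SE in black, the ratio within rat 1 in green and within rat 2 in purple, and the middle 50% of all tested genes shaded. The ratios within the rats lie close together for Bmp7 and Smad3 and lie on opposite sides of 0 for Smad6, Smad7, Tgfb1, Gdf11 and Bmpr1b.

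Among the receptor Smads, Smad3, which carries TGF-beta and activin signals, had the most negative log2 fold change of the 24 tested members. It is listed as ENSMUSG00000032402 on mouse chromosome 9 at 63646767 to 63757994, minus strand. Smad3 had 23 and 16 counts with AAV-Fgf7 in rats 1 and 2, against 37 and 34 counts with control virus. Both of its AAV-Fgf7 values lay below all control values, at 13.7 ± 3.65 CPM in AAV-Fgf7 ears and 25.4 ± 3.86 CPM in control ears (SD, n = 2 each). The ratio of the AAV-Fgf7 to the control ear was 0.578 in rat 1 and 0.490 in rat 2, and the log2 fold change of -0.89 (SE 0.40) had an adjusted p by edgeR of 0.9996 (unadjusted p of 0.0677). Smad2, its partner for the same receptors, stood at 35.3 and 49.2 CPM in AAV-Fgf7 ears and at 36.4 and 39.3 CPM in control ears, a log2 fold change of 0.16 (SE 0.31) with overlapping groups. Whether the changes of Smad3 and Smad2 differ was not tested.

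Smad4, the common partner of all receptor Smads, was the steadiest Smad, at 67.1 and 70.6 CPM in AAV-Fgf7 ears and 82.8 and 76.5 CPM in control ears. Its groups did not overlap on this scale, but its log2 fold change of -0.21 (SE 0.24) was within its error, and with libraries scaled by their totals alone its groups overlapped. The BMP receptor Smads were scarce in the table, with 27 counts for Smad1, 32 for Smad5 and 11 for Smad9 over all 4 libraries, against 228 for Smad2 and 110 for Smad3. Per gene length this was 0.745, 0.752 and 0.359 FPKM for Smad1, Smad5 and Smad9, against 11.1 FPKM for Smad2 and 3.46 FPKM for Smad3. How much of each rat transcript is counted under the mouse gene models is not known, so levels of low genes cannot be told apart from incomplete counting.

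The inhibitory Smads differed between ears in opposite directions in the 2 rats. Smad6, which acts mainly on BMP signals, stood at 153 and 62.3 CPM in the AAV-Fgf7 ears of rats 1 and 2 and at 72.1 and 119 CPM in their control ears. Smad7, which acts on TGF-beta and BMP signals, stood at 174 and 96.9 CPM in AAV-Fgf7 ears and at 109 and 134 CPM in control ears. For both genes the high libraries were AAV-Fgf7 in rat 1 and control in rat 2. Their log2 fold changes were 0.17 (SE 0.47) and 0.15 (SE 0.32), and the ratios of the AAV-Fgf7 to the control ear were 2.12 and 0.523 for Smad6 and 1.59 and 0.725 for Smad7. Msx2, a homeobox gene of the hair matrix that is also known to be induced by BMP, had 131 and 15 counts in AAV-Fgf7 ears and 21 and 68 in control ears. The hair follicle sums given above, which include Msx2, had the same high pair of libraries. The part of follicles in the Smad6 and Smad7 values was not tested.

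**Figure D3:**
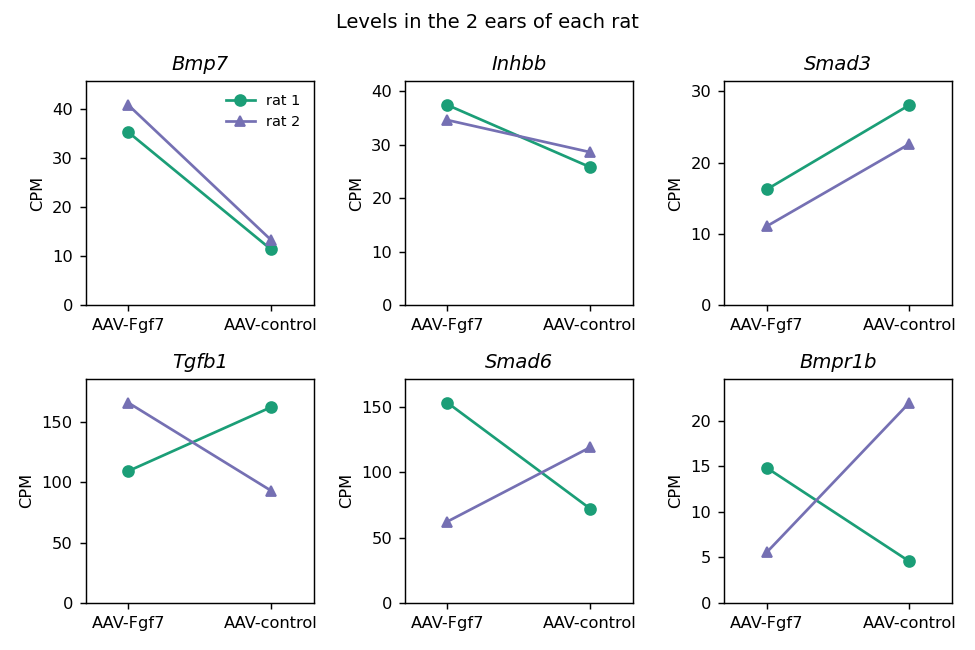
CPM in the AAV-Fgf7 ear (left) and the control ear (right) of each rat, joined by a line, for 6 members. The lines of both rats fall toward the control ear for Bmp7 and Inhbb, rise for Smad3, and cross for Tgfb1, Smad6 and Bmpr1b.

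Such opposite ratios were common in the family. They rest on the match of AAV-Fgf7 libraries to rats by number. Of the 24 tested members, 11 (45.8%) were higher in the AAV-Fgf7 ear of rat 1 and lower in that of rat 2, as against 29.2% of all tested genes, and 5 (20.8%) had the opposite pair of signs, as against 29.9%. Only 3 members (Bmp7, Inhba and Inhbb) were higher in the AAV-Fgf7 ear in both rats, or 12.5% against 21.0% of all tested genes. Another 5 (Bmp2, Bmp6, Smad3, Smad4 and Tgfbr1) were lower in both, or 20.8% against 19.9%. The median log2 ratio of the members was 0.18 in rat 1 and -0.19 in rat 2, against 0.00 and 0.01 over all tested genes. Hair follicle, skeletal muscle and cartilage sums were likewise higher in the AAV-Fgf7 ear of rat 1 and lower in that of rat 2, and their part in the ratios of the members was not tested.

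**Figure D4:**
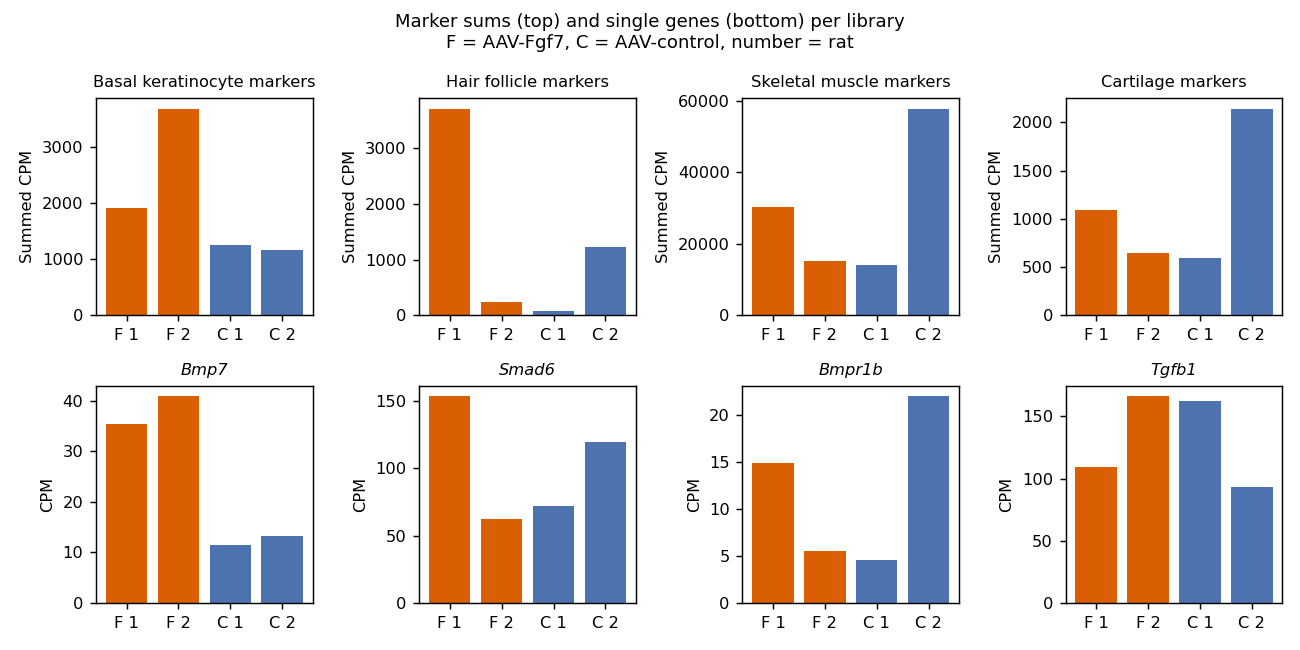
Summed CPM of 4 marker lists (top) and CPM of 4 members (bottom) in each library, with AAV-Fgf7 libraries in orange and control libraries in blue. Bmp7 is high in both AAV-Fgf7 libraries, Smad6 and Bmpr1b are high in the rat 1 AAV-Fgf7 and rat 2 control libraries, and Tgfb1 is high in the other pair.

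The rest of the pathway was read through 7 lists of other genes, 103 names in all, of which 101 matched the table and 66 were tested. None of the 66 had an unadjusted p under 0.05 by edgeR, and 0 were called. Both AAV-Fgf7 libraries lay above both controls for 6 (9.09%, against 14.8% of all tested genes) and below both for 13 (19.7%, against 13.3%). Their log2 fold changes were negative for 51 (77.3%, against 52.2% of all tested genes) and positive for 15.

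Extracellular antagonists, which bind ligands and keep them from their receptors, had 10 tested members, of which 9 were negative, with a median of -0.43. Chrdl1, a chordin-like BMP binder, stood at 13.4 and 13.8 CPM in AAV-Fgf7 ears and at 19.7 and 30.6 CPM in control ears, a log2 fold change of -0.89 (SE 0.40). Nbl1, a BMP binder of the DAN family, stood at 297 and 180 CPM against 301 and 355 CPM, with a log2 fold change of -0.46 (SE 0.28), and Fstl1, a follistatin-like protein, at 92.5 and 78.9 CPM against 109 and 119 CPM, with one of -0.41 (SE 0.22). The 1 positive member was Sostdc1, an antagonist of BMP and Wnt signals in skin appendages, with 56 and 95 counts in AAV-Fgf7 ears and 41 and 41 in control ears, which gave a log2 fold change of 0.85 (SE 0.36) and an unadjusted edgeR p of 0.0546. Grem1, the BMP antagonist gremlin, had 65 and 45 counts in AAV-Fgf7 ears and 17 and 182 in control ears. Leaving out an AAV-Fgf7 library gave list medians of -0.74 (rat 1 left out) and -0.25 (rat 2 left out, 8 of 10 negative). Leaving out a control library gave -0.77 (rat 1 left out) and 0.19 (rat 2 left out, 4 of 10 negative). The median ratio was 0.16 on the log2 scale within rat 1 and -1.06 within rat 2.

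Genes for latency, storage and activation of ligands had 14 tested members, 13 of them negative, with a median of -0.35. Ltbp1, which tethers latent TGF-beta to the matrix, stood at 29.0 and 27.0 CPM in AAV-Fgf7 ears and at 34.9 and 49.9 CPM in control ears, a log2 fold change of -0.60 (SE 0.33). Tll1, a protease related to Bmp1, had 11 and 12 counts in AAV-Fgf7 ears and 19 and 19 in control ears, with a log2 fold change of -0.74 (SE 0.45). Thbs1, the latent TGF-beta activator thrombospondin, had a log2 fold change of -0.32 (SE 0.27), and Ltbp4, another latent TGF-beta binding protein, one of -0.39 (SE 0.29), both with overlapping groups. For these genes, leaving out an AAV-Fgf7 library gave medians of -0.66 (rat 1 left out, all 14 negative) and -0.15 (rat 2 left out, 10 of 14 negative). Leaving out a control library gave -0.58 (rat 1 left out) and -0.13 (rat 2 left out, 11 of 14 negative). The median log2 ratio was 0.05 within rat 1 and -0.70 within rat 2. The control ear of rat 2 also held the highest skeletal muscle and cartilage sums, and their part in both lists was not tested.

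Co-receptors, with 6 tested, had a median log2 fold change of 0.14. Eng, the endothelial co-receptor endoglin, and Rgma, a BMP co-receptor, lay higher in both AAV-Fgf7 libraries than in both controls, with log2 fold changes of 0.31 (SE 0.33) for Eng and 0.37 (SE 0.28) for Rgma. Rgmb and Neo1 stood at 0.25 (SE 0.33) and -0.22 (SE 0.26). Of the other ligands of the superfamily, Mstn (myostatin, a ligand made by muscle) was the 1 gene tested. It had 25 and 6 counts in AAV-Fgf7 ears and 24 and 30 in control ears, a log2 fold change of -0.81 (SE 0.66), beside the muscle sums given above.

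The intracellular regulators, with 19 tested, had a median of -0.08 and ran from -0.44 for Wwp2, a ubiquitin ligase, to 0.56 for Smurf2, a ubiquitin ligase of receptors and Smads. Smurf2 had 52 and 35 counts in AAV-Fgf7 ears and 29 and 29 in control ears (SE 0.37), and Usp15, a deubiquitinase of this pathway, 40 and 35 against 26 and 29, a log2 fold change of 0.43 (SE 0.34). Dab2, an endocytic adaptor of TGF-beta receptors, stood at -0.35 (SE 0.22). The groups of Smurf2, Usp15 and Dab2 did not overlap, and Wwp2 overlapped.

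Of 16 tested transcripts known to be induced by the pathway, 13 had negative log2 fold changes (81.2%, against 52.2% of all tested genes), and none passed the test. Both AAV-Fgf7 libraries lay below both controls for 2 of the 16 (12.5%, against 13.3% of all tested genes). They lay above both for 0, against 14.8% of all tested genes. Of 8 BMP-induced genes tested, 6 were negative and the median was -0.18. Id2 and Id4, inhibitors of differentiation and direct targets of BMP Smads, stood at -0.26 (SE 0.24) and -0.35 (SE 0.42), while Atoh8 and Msx2 stood at 0.63 (SE 0.51) and 0.74 (SE 0.96). Of 8 TGF-beta-induced genes tested, 7 were negative and the median was -0.10. Ctgf, a matricellular target in fibroblasts, stood at 172 and 138 CPM in AAV-Fgf7 ears and at 188 and 250 CPM in control ears, a log2 fold change of -0.50 (SE 0.24) with an unadjusted edgeR p of 0.0802. Tgfbi, a matrix protein named for its induction by TGF-beta, had 7 and 26 counts in AAV-Fgf7 ears and 48 and 17 in control ears, a log2 fold change of -1.04 (SE 0.78) with overlapping groups. Fn1 and Acta2, genes of fibronectin and of smooth muscle actin, stood at -0.09 (SE 0.19) and 0.10 (SE 0.21). Among the genes of this list at 0 in all libraries were Cdkn1a, Cdkn2b, Tagln and Timp1.

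**Figure D5:**
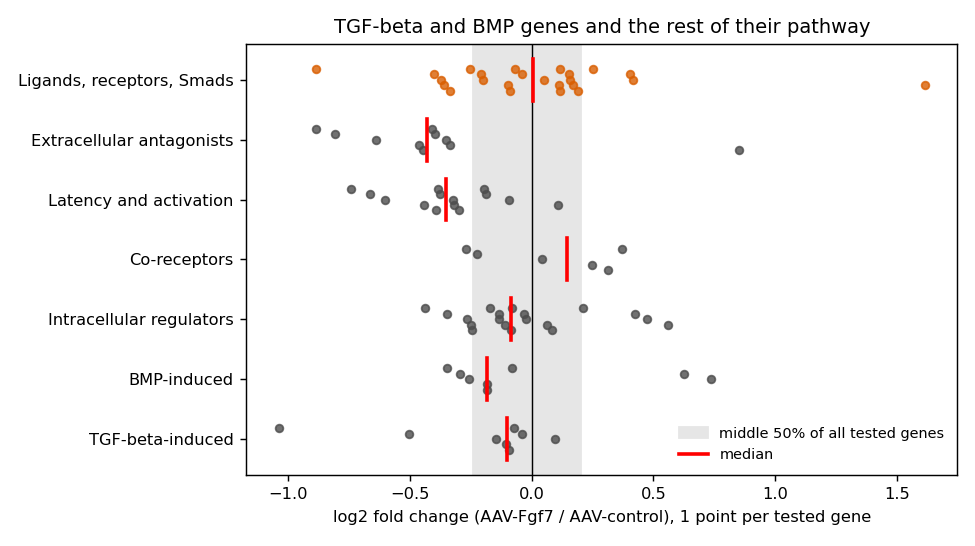
Log2 fold changes of AAV-Fgf7 over control for every tested gene of the family (orange) and of 6 further pathway lists (dark grey), with the median of each list in red and the middle 50% of all tested genes shaded. The medians of the antagonist and latency lists lie at -0.43 and -0.35, left of the shaded band, and those of the other lists lie inside it.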

How the data were processed

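Whole-tissue RNA-seq was deposited by the authors as gene-level raw counts and as FPKM, which they scaled by gene length and library; both list mouse Ensembl genes. Per the submitters' processing notes the build was Rnor_6.0 (rn6); the aligner, the counting tool and whether poly(A) selection or rRNA depletion was used were not given in the sources used here. In the labels, one column, Treated1, is named for both AAV-Fgf7 samples. Treated2 was assigned to rat 2 because the numbers in the column name and the title match. All ratios, signs and correlations within a rat depend on this assignment, and the reverse assignment was not examined. The titles and the design text disagree on ear side, which was not used.

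Genes were filtered with filterByExpr of edgeR 4.0.16 (R 4.3.3), which kept 6370 genes, and scaled by TMM. AAV-Fgf7 was compared with control by the two-sided quasi-likelihood test without a block, with Benjamini-Hochberg adjustment over all 6370 genes at 0.05, and the SE was the size of the log2 fold change over the root of F. P-values and SEs rest on the spread between 2 ears per group, moderated for each gene by the spread over all tested genes. The same 2 rats supplied both groups. The main fit leaves out that pairing. Counting limits cover counting error only, since the labels name no molecular identifiers. The rat number in the titles pairs the ears, and same-rat deviations from the group means correlated at r = -0.29 across genes, which are not independent replicates. With 2 libraries per group, the sign of this correlation would reverse if the 2 AAV-Fgf7 libraries were swapped between rats. Alternatives included DESeq2 1.42.0, limma 3.58.1 with voom and on log2(FPKM + 1) or log2(FPKM + 0.1), and a rat block. Members, lists and the rule for named genes (Fgf7, every tested member, and up to 4 genes of lowest p per list; other list genes named were chosen after their values were seen) were chosen with earlier results of these data known.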

Additional observations from a re-analysis of the deposited data

How the results depend on the processing

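With 2 libraries per group, even a large difference could fail to pass. Fgf7, at a log2 fold change of 3.18, was not called in the main edgeR fit (adjusted p of 0.9996). It was called by edgeR without the low-count filter (adjusted p of 0.00512), where Bmp7 was not (adjusted p of 0.845). A member without a call is thus not shown to be unchanged. None of the 14 alternative fits called a member, and 8 of the 24 tested members kept their sign in all of them, Bmp7 and Smad3 among them. The count of genes called over the whole table was 0 with edgeR, 3 without the low-count filter, 4 with DESeq2 and 0 to 19 when 1 library was left out, where the higher count came without the control library of rat 1. With rat as a replicate block it was 0 (75 genes at an unadjusted p under 0.05), the block changed no other call, and the log2 fold change of Bmp7 was 1.62 (adjusted p = 0.9997). With libraries scaled by their totals, 4 members lay above both controls (Acvr1 and Bmp4 were added; 16.7%, against 16.4% of all genes on that scale) and 5 were higher in both rats (20.8% against 22.5%). Without the filter, 6 of 36 lay below both controls (16.7%, against 11.7% of all genes with a count) and 8 were lower in both rats (22.2% against 17.0%), through Acvr1c, Acvr2b and Gdf6, with 3 to 10 counts in all. Gdf11 changed sign (from -0.04) to 0.0142 with library totals, 0.00639 with the block, 0.00749 on log2(FPKM + 1) with and without the filter, and 0.0218 on log2(FPKM + 0.1). The median of the members ran from -0.16 to 0.14 when 1 library was left out. In those fits the lone library of a group is assumed to vary like the other group. Their log2 fold changes changed sign for 16 members, running from -0.61 to 0.68 for Smad6, -0.32 to 0.51 for Smad7, -0.0265 to 0.25 for Bmp4, -0.60 to 0.0306 for Bmp1, -0.20 to 0.50 for Bmpr1a, -0.69 to 0.43 for Bmp2, -1.18 to 0.30 for Bmp6, -0.42 to 0.50 for Gdf11, -0.24 to 0.56 for Tgfb1, -0.10 to 0.38 for Smad2, -1.26 to 1.14 for Bmpr1b, -0.45 to 0.36 for Acvrl1, -0.13 to 0.26 for Acvr2a, -0.45 to 0.10 for Tgfb3, -0.00061 to 0.55 for Inhba and -0.36 to 0.22 for Bmpr2. The cause of these shifts was not tested. The values of the antagonist and latency lists without single libraries were added after seeing the data.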
